A study of Rattus norvegicus with 32 samples.

Results

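Solute carriers are membrane proteins that move amino acids, sugars, ions, metals, nucleosides, vitamins and neurotransmitters across the plasma membrane or the membranes of organelles. Members were the beadchip probes whose gene symbol in the platform annotation has the form Slc, a family number, the letter a and a member number, leaving out the astrocytic glutamate transporters Slc1a2 and Slc1a3. A probe also had to be detected, meaning a deposited detection p under 0.05, on at least 4 of the 9 arrays taken 1 h after injection. Of 22523 probes on the array, 280 matched by symbol, for 270 genes, and 131 of them were detected often enough. These 131 probes stand for 131 genes with 1 member probe each. Some of these genes, Slc4a4, Slc41a1, Slc22a23 and Slc25a30, also have a probe that was not detected often enough. The pattern takes symbols with the letter a only, so Slc35 genes of the b to g subgroups and the Slco family are outside it.

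RNA of the nucleus accumbens, the ventral part of the striatum, was measured on Illumina RatRef-12 expression beadchips. Male Sprague-Dawley rats received 1 injection of methamphetamine (METH, 20 mg/kg) or of saline, and the 9 arrays used here were taken 1 h later, 5 after METH and 4 after saline. Both groups are otherwise untreated rats of the same strain and sex, and the labels give a body weight in place of an age. The labels state 5 rats per group while 4 saline arrays were present, which leaves unknown whether every array is a separate rat. The p-values cover the spread among these arrays. The tissue is a dissected block that holds several cell types, and in such bulk RNA fewer cells of a type and less RNA per cell cannot be told apart.

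METH acts on solute carriers directly. It enters dopamine terminals through the dopamine transporter, encoded by Slc6a3, and displaces vesicular dopamine held by the vesicular monoamine transporter, encoded by Slc18a2, so that dopamine is released through the transporter. The RNAs of both proteins are made mainly in the cell bodies of dopamine neurons in the midbrain, whereas the proteins sit on terminals in the accumbens. Neurons of the accumbens itself are mostly GABAergic projection neurons, with a small number of cholinergic interneurons, and glutamate reaches them from the cortex, thalamus, hippocampus and amygdala.

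The dopamine, serotonin and vesicular monoamine transporters were not detected as RNA in this tissue. Slc6a3 was detected on 0 of 9 arrays, with detection p between 0.246 and 0.88, and its deposited background-subtracted intensity lay between -10.4 and 5.5. Slc18a2 was likewise at 0 of 9 arrays, with detection p between 0.230 and 0.775. Slc6a4, the serotonin transporter, was detected on 0 of 9 arrays as well, with detection p from 0.0897 to 0.547. Slc6a2, the noradrenaline transporter, was detected on 3 saline arrays and on 0 METH arrays, and its deposited intensities overlapped, from 16.5 to 27.8 with saline and from 10 to 26 with METH. Nothing can be said here about a change of these 4 RNAs.

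Detection varied among the matching probes much as over the whole array. Of the 280, 102 were detected on all 9 arrays and 103 on 0 arrays, with 75 in between. Of all 22523 probes, 8046 were detected on all 9 arrays, a similar share, and 9987 on at least 4. Just inside the limit, at 4 arrays, lay Slc23a2, Slc43a1, Slc6a7 and Slc9a2, and just outside it, at 3 arrays, lay Slc37a1, Slc44a4, Slc4a8, Slc6a2, Slc6a5 and Slc9a7. Among familiar brain transporters that fell below the limit, the vesicular glutamate transporter Slc17a8, the glucose transporter Slc2a1 and the sodium/calcium exchanger Slc8a1 were detected on 0 arrays. Slc6a11, a GABA transporter, the cystine/glutamate exchanger gene Slc7a11 and the vesicular zinc transporter gene Slc30a3 were detected on 1 array each. Each of these genes has 1 probe here, and a probe that fails to report its RNA cannot be told from an absent RNA. The vesicular GABA transporter gene Slc32a1, Slc16a7 and Slc12a2 had no named probe here.

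**Figure D1:**
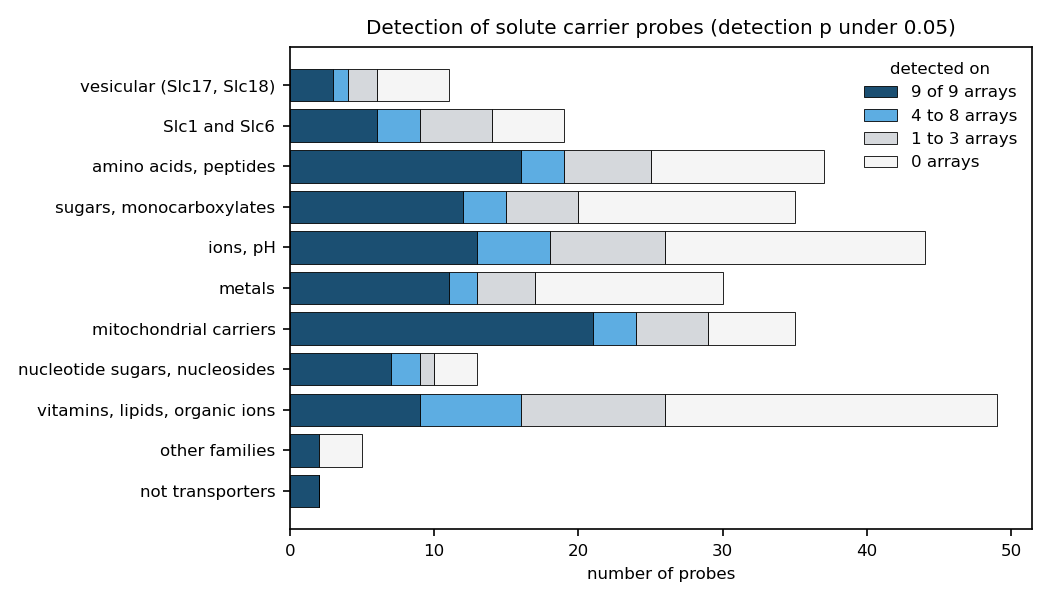
Matching probes by role of the family, drawn as stacked bars of probe counts, split by the number of arrays on which they were detected. Mitochondrial carriers were the role with 21 of 35 probes detected on all 9 arrays, while vitamin, lipid and organic ion transporters had 23 of 49 detected on 0 arrays.

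The 9 arrays lay on 2 slides, with saline 1 and 2 and METH 1 and 2 on slide 1 and the others on slide 2. Mean intensity per array ranged from 164.3 to 231.4, and between 41.5% and 47.3% of all probes were detected. Of the matching probes, 40.7% were detected on METH 2 and 53.9% on METH 5, with 43.2% to 47.5% on the other arrays. The activity-induced genes Fos, Arc, Egr1 and Junb all rose with METH, with a median log2 fold change of 2.61. This list was chosen after values were seen, so it is no independent check of the labels. Of 12 measured markers of striatal projection neurons, 0 passed the threshold and 9 were lower with METH at an unadjusted p under 0.05. At that p, 5.66% of all tested probes were lower. All 12 markers had a log2 fold change below 0 (median -0.49), where 54.3% of all tested probes did. Their summed deposited intensity ran from 18126 to 24856 with saline and from 10493 to 26001 with METH. Of 15 cortical glutamatergic neuron markers written down, 6 were measured, and their median log2 fold change was 0.81, with 0 past the threshold and summed intensities of 2510 to 2789 with saline and 2718 to 4168 with METH. Their part in the values below was not tested. Fits with either marker median as a covariate were added after values were seen and stand beside single genes. Both medians differ between the groups, so these fits cannot tell a difference with METH from one in the cell types of the block.

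The comparison asked which solute carrier RNAs differed 1 h after METH. Of the 131 members, 0 had a Benjamini-Hochberg adjusted p under 0.05 in limma, where 52 of 9987 tested probes (0.521%) did, 0.491% rising and 0.03% falling. The smallest adjusted p among the members was 0.0607, of Slc25a25. At an unadjusted p under 0.05, 18 members (13.7%) differed, against 11% of all tested probes. Of these 18, 6 were higher with METH (4.58% of members, 5.33% of all tested probes) and 12 were lower (9.16% and 5.66%). Array groups did not overlap for 4 members (3.05%, against 4.26% of all tested probes), with Slc25a25, Slc6a15 and Slc3a2 above the saline arrays (1.96% of all tested probes lay above) and Slc16a13 below them (2.29%). A log2 fold change of at least 0.5 in either direction was found for 6 members (4.58%, against 5.29%), 3 upward and 3 downward, where 3.37% and 1.91% of all tested probes were.

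Most members sat close to their saline level. The median log2 fold change of METH minus saline was -0.03 over the members (-0.02 over all tested probes), with quartiles of -0.14 and 0.12 (-0.16 and 0.12 over all). Of the members, 62 lay above 0 and 69 (52.7%) below, where 54.3% of all tested probes lay below. The 95% interval stayed within a doubling or halving for 122 members (93.1%), and within 1.5-fold for 84 (64.1%). The median interval reached 0.33 to either side, close to 0.34 for all tested probes. For the other 9, Slc17a7 and Slc25a25 among them, the interval reached past a doubling or halving.

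**Figure D2:**
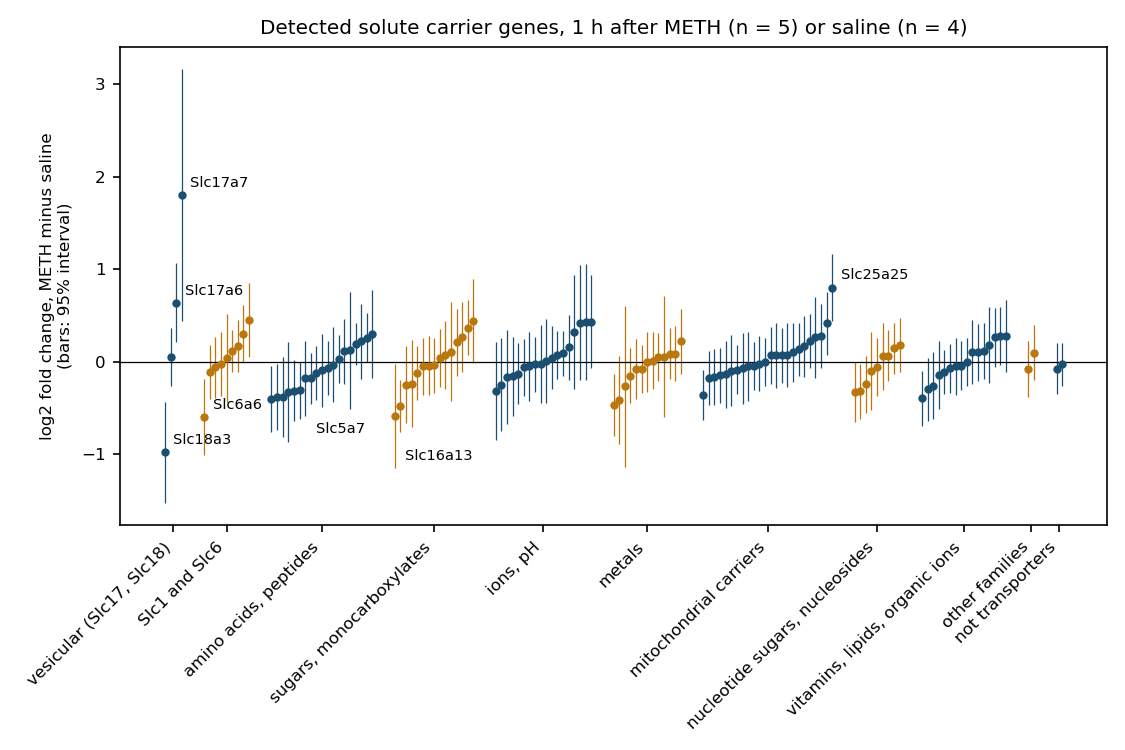
Log2 fold change of METH over saline for the 131 members, grouped by role and ordered by value within a role, with bars for the 95% interval from limma. Slc17a7 at 1.80 and Slc18a3 at -0.98 are the extremes, and most other members lie within 0.5 of 0.

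The mitochondrial carrier Slc25a25 came closest to the threshold. Its product exchanges ATP-magnesium for phosphate across the inner mitochondrial membrane and is regulated by calcium. The normalized log2 values of Slc25a25 were 8.94, 9.31, 9.01 and 8.82 on saline arrays 1 to 4 and 9.99, 10.24, 9.67, 9.77 and 9.43 on METH arrays 1 to 5. Every METH array lay above every saline array, although METH 5 exceeded saline 2 by little. Slc25a25 had a log2 fold change of 0.80 ± 0.17 (SE, n = 5 and 4), or 1.74-fold, with a 95% interval of 0.44 to 1.16 and an adjusted p of 0.0607 (limma), just short of the threshold. Within slide 1 it was 0.99 and within slide 2 it was 0.71. With the slide as a block it was 0.84 with an adjusted p of 0.0105, and in 9 of 22 alternative settings, this one included, it passed the threshold, over a range of log2 fold changes from 0.70 to 1.22 and of adjusted p from 0.0022 to 0.315. With the cortical markers as a covariate the log2 fold change was 1.19 (adjusted p = 0.0065), and with the striatal markers it was 1.22 (adjusted p = 0.0043).

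The promoter of Slc25a25 is shown because this gene had the smallest p of the members and its window holds a full cAMP response element, the site read by CREB, a factor activated by calcium and cAMP. RefSeq promoters (GRCr8) from 250 bases before to 50 bases after the gene start were at hand for 111 of the 131 members. The element searched was TGACGTCA, which reads the same on both strands and was not searched together with any other motif. It was found in 3 of the 111 (2.7%, counted by gene), against 612 of all 33469 promoters of that length (1.83%, counted by promoter). The windows are those of Slc25a25 (chr3:36116532-36116831, minus strand), Slc38a6, a glutamine transporter family gene (chr6:97723276-97723575, plus strand), and Slc45a1, a proton-coupled sugar transporter gene (chr5:166412134-166412433, minus strand). Capitals mark the element, which starts 158, 136 and 71 bases before the respective gene starts.
Slc25a25: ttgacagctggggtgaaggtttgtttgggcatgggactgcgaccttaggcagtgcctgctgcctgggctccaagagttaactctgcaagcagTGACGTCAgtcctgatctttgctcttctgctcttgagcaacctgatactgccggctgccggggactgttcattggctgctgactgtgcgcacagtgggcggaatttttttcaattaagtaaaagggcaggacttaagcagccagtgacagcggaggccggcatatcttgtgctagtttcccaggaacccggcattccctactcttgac
Slc38a6: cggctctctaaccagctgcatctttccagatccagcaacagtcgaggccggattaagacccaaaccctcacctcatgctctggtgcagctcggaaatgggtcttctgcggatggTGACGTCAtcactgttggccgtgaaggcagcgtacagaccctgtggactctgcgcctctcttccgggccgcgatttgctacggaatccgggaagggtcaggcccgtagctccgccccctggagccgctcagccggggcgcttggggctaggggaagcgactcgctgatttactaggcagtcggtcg
Slc45a1: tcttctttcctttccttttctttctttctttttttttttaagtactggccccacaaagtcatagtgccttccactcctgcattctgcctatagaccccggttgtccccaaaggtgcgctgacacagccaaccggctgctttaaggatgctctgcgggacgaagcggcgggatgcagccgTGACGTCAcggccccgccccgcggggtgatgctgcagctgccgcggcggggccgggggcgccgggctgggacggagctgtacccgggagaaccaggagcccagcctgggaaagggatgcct
The other 2 genes that hold the same letters had log2 fold changes near 0, -0.09 for Slc38a6 and 0.07 for Slc45a1, against 0.80 for Slc25a25. A match is a description of the letters in this window and says nothing of binding. Whether the element has a part in these fold changes was not tested.

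Vesicular transporters, which load transmitters into synaptic vesicles or work in lysosomes, had the widest spread of all roles. Of 11 matching probes, 4 were members, and 3 of those 4 had an unadjusted p under 0.05, against 11% of all tested probes. Slc18a3 encodes the vesicular acetylcholine transporter, a marker of cholinergic neurons. Its normalized log2 values were 6.54, 6.99, 7.22 and 6.16 with saline and 5.64, 6.39, 5.57, 5.90 and 5.22 with METH. Saline 4 lay below METH 2, and the other METH arrays were below all saline arrays. The log2 fold change of Slc18a3 was -0.98 ± 0.25 (SE), with an interval of -1.53 to -0.43 and an adjusted p of 0.165 (limma), which did not pass. It was -0.75 within slide 1 and -1.12 within slide 2.

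Slc5a7, which takes choline back into cholinergic terminals and belongs by number to the sodium/glucose cotransporter family, differed in the same direction as Slc18a3. Its values were 5.69, 5.91, 6.22 and 5.25 with saline and 4.80, 5.98, 4.88, 4.80 and 5.46 with METH. The Slc5a7 probe was detected on 4 of 4 saline arrays and on 2 of 5 METH arrays, and METH 2 and METH 5 lay within the range of the saline arrays. Its log2 fold change was -0.59 ± 0.26 (SE), with an adjusted p of 0.442. The transcription factor gene Isl1, the other measured gene of a cholinergic list of 8 written after values were seen, had a log2 fold change of -0.81, but it is also a striatal projection neuron marker here. Chat, the gene for the acetylcholine-synthesising enzyme, had no named probe, and RefSeq places Slc18a3 inside the Chat gene.

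With the striatal markers as a covariate, the log2 fold change of Slc18a3 was -0.33 (adjusted p = 0.653), and with the cortical markers it was -0.36 (adjusted p = 0.803). Both covariates differ between the groups, so a part of cell types and a difference with METH cannot be told apart in these fits. The striatal marker median relative to the saline mean was between -0.20 and 0.12 on the saline arrays and between -0.99 and -0.19 on the METH arrays. Saline 4, the lowest saline array for Slc18a3 and Slc5a7, was also the lowest saline array for those markers. METH 5, the lowest of all arrays for the markers, was lowest for Slc18a3 (5.22) but not for Slc5a7. There the value of Slc5a7 (5.46) was above that of saline 4 (5.25).

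The vesicular glutamate transporters had positive log2 fold changes. Slc17a7 encodes VGLUT1, made by cortical and hippocampal projection neurons, and it is one of the cortical markers. Its normalized log2 values were 4.90, 5.48, 4.71 and 6.58 with saline and 7.36, 4.71, 8.31, 8.01 and 7.72 with METH. METH 2 was as low as saline 3, the lowest saline array. Deposited intensities there were at background, -3.6 on METH 2 and -1.8 on saline 3. The other METH arrays were above all saline arrays. The Slc17a7 probe was detected on 4 of 5 METH and 2 of 4 saline arrays, so it met the detection rule through the METH arrays. Its log2 fold change was 1.80 ± 0.63 (SE), with an interval of 0.44 to 3.17 and an adjusted p of 0.301. Without METH 2, the array that went against the difference, it was 2.43 with an adjusted p of 0.0036, past the threshold. In that fit 250 of all tested probes passed. Over all fits that left out 1 array the adjusted p of Slc17a7 ran from 0.0036 to 0.686. The log2 fold change was 0.84 within slide 1 and 2.37 within slide 2.

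The median of the other cortical markers had a similar order over the arrays, but not every marker did. Across the saline arrays 1 to 4 the median of the cortical markers other than solute carriers was -0.09, -0.07, -0.22 and 0.23 relative to the saline mean. On METH arrays 1 to 5 it was 0.50, -0.12, 0.80, 0.90 and 0.84. METH 2 was thus low for both, and saline 4 was the highest saline array for both. With this median as a covariate the log2 fold change of Slc17a7 was -0.34 (adjusted p = 0.840), the opposite sign. This median differs between the groups, so this fit has the same limit as those for Slc18a3. The measured markers besides Slc17a7 were Neurod6 (1.47), Fezf2 (1.02), Neurod2 (0.60), Camk2a (0.23) and Lamp5 (-0.35), given as log2 fold changes. Emx1 and Rorb were detected on 3 arrays each, Slc30a3 on 1 and Rasgrf2 on 0. Among the METH arrays, Neurod6, Fezf2 and Neurod2 were lowest on METH 2. Camk2a was lowest on METH 3 (6.686, with 6.700 on METH 2), and Lamp5 was highest on METH 2 (11.648).

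**Figure D3:**
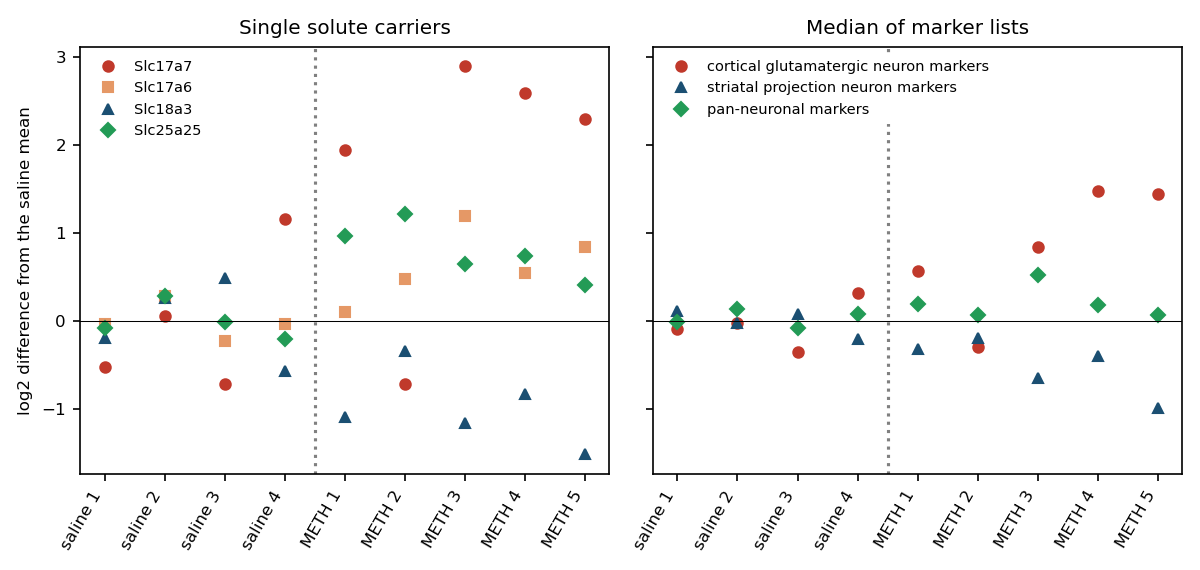
Log2 difference of each of the 9 arrays from the saline mean, for 4 members (left: Slc17a7, Slc17a6, Slc18a3 and Slc25a25) and for the median of the cortical, striatal and pan-neuronal marker lists (right), with the cortical list including Slc17a7. The cortical median lies at -0.29 on METH 2 and between 0.57 and 1.48 on the other METH arrays, and Slc17a7 is likewise low on METH 2.

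Slc17a6 encodes VGLUT2, known from glutamatergic neurons of the thalamus and other subcortical regions. Its values were 8.14, 8.46, 7.95 and 8.14 with saline and 8.28, 8.66, 9.37, 8.72 and 9.02 with METH. Only METH 1 lay within the range of the saline arrays. Slc17a6 had a log2 fold change of 0.64 ± 0.20 (SE) and an adjusted p of 0.237, and it was 0.17 on slide 1 and 0.99 on slide 2. Fits with the cortical and the striatal covariate gave 0.39 and 0.25. The other 3 measured genes of a list of thalamic and other subcortical glutamatergic genes, written after values were seen, did not share its sign throughout, with log2 fold changes of -0.50 for Calb2, -0.51 for Prkcd and 0.06 for Tcf7l2. Slc17a5, which exports sialic acid from lysosomes, was at 0.05.

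**Figure D4:**
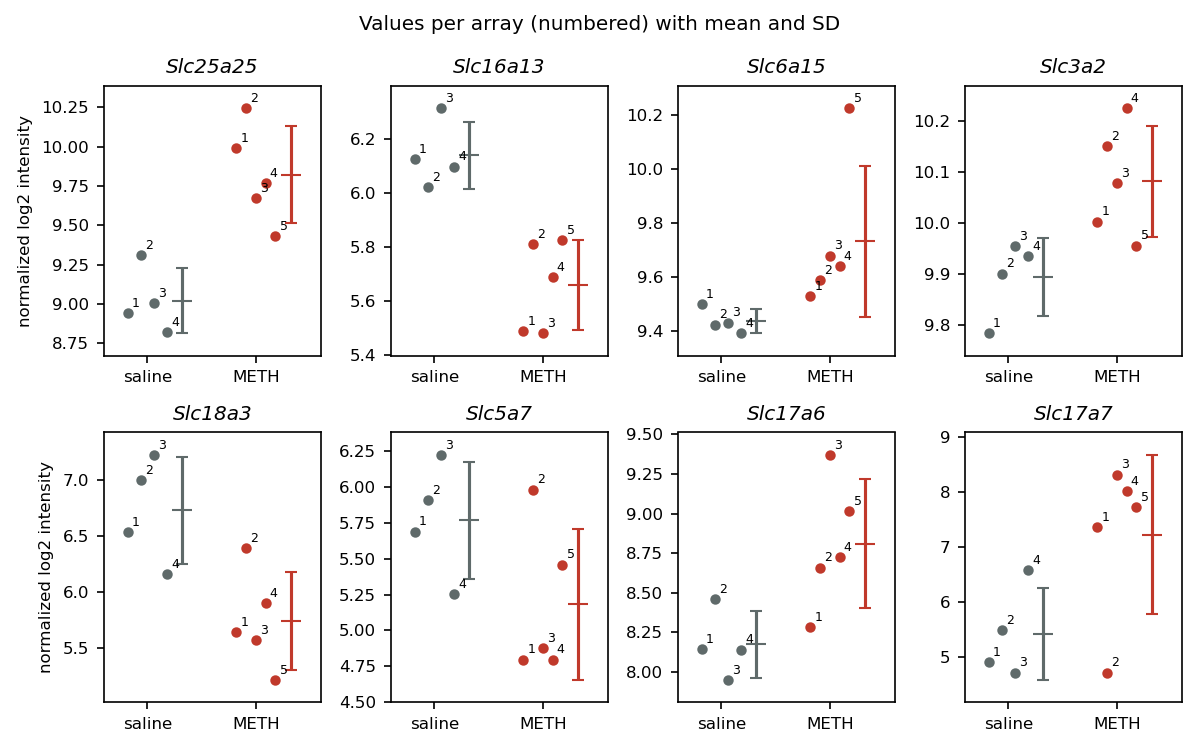
Normalized log2 intensity of 8 members on the 4 saline and 5 METH arrays, with a numbered point per array and a bar for the group mean and SD beside the points; each panel has its own axis, which does not start at 0. Groups do not overlap in the upper row (Slc25a25, Slc16a13, Slc6a15 and Slc3a2), while in Slc17a7 METH 2 lies among the saline arrays.

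Plasma membrane transporters of the Slc1 and Slc6 families clear transmitters and osmolytes from the extracellular space. Of 19 matching probes 9 were members, with a median log2 fold change of 0.04. An unadjusted p under 0.05 was found for 2 members, 1 in each direction, and for 11% of all tested probes. Slc6a6, the taurine transporter, had values of 6.81, 7.63, 7.12 and 6.60 with saline and 6.33, 6.44, 6.39, 6.63 and 6.42 with METH. Only METH 4 reached into the saline range, and saline 2 was the highest array. For Slc6a6 the log2 fold change was -0.60 ± 0.19 (SE), with an adjusted p of 0.245. Slc1a4, which carries alanine, serine and cysteine, had a log2 fold change of 0.45 (adjusted p = 0.386) and was detected on 5 METH and 3 saline arrays.

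Slc6a15 transports branched-chain amino acids and proline into neurons. It had values of 9.50, 9.42, 9.43 and 9.39 with saline and 9.53, 9.59, 9.68, 9.64 and 10.2 with METH. The groups did not overlap, but METH 1 and saline 1 were close and METH 5 stood above the rest. Its log2 fold change was 0.30 ± 0.14 (SE), with an adjusted p of 0.479. The neuronal glutamate transporter Slc1a1 (0.11), the creatine transporter Slc6a8 (0.04), the glycine transporter Slc6a9 (-0.06) and Slc1a6, a further glutamate transporter (-0.03), lay near 0 in log2 fold change. Slc6a7, a proline transporter, at 0.17, was detected on fewer than 2 saline arrays.

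Amino acid and peptide transporters take up, release and exchange amino acids and short peptides. Of 19 members, 7 had a log2 fold change above 0 and 12 below, with a median of -0.09, against -0.02 over all tested probes. Among those below 0, 3 had an unadjusted p under 0.05, where 5.66% of all tested probes were lower at that p. Slc7a10 encodes an alanine, serine and cysteine exchanger that carries D-serine in astrocytes and neurons. Its values were 7.82, 8.13, 7.96 and 7.98 with saline and 7.43, 7.80, 7.21, 7.98 and 7.41 with METH. METH 4 was as high as the saline arrays and the other METH arrays lay below them. For Slc7a10 this gave a log2 fold change of -0.41 ± 0.16 (SE), with an adjusted p of 0.383.

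Slc7a4, an orphan relative of the cationic amino acid transporters, was at -0.38 (adjusted p = 0.422), and Slc38a10 was at -0.31 (adjusted p = 0.452). The glutamine transporter Slc38a3 of astrocytes had a log2 fold change of -0.38 as well. The neutral amino acid transporter Slc38a2, induced in other cells by amino acid shortage, was at 0.26 with an adjusted p of 0.464.

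Both chains of the LAT1 exchanger, which brings large neutral amino acids such as leucine and the dopamine precursor L-DOPA into cells, were members. The heavy chain Slc3a2 had values of 9.783, 9.9, 9.954 and 9.935 with saline and 10.002, 10.15, 10.078, 10.224 and 9.955 with METH. No METH array was below a saline array, but METH 5 and saline 3 differed by almost nothing. Its log2 fold change was 0.19 ± 0.11 (SE), with an adjusted p of 0.543. The light chain Slc7a5 had a log2 fold change of 0.22, also not past the threshold. Peptide transporters Slc15a2 (0.30) and Slc15a4 (0.11) were on the positive side.

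Sugar, monocarboxylate and related transporters were grouped by family number, which also takes in Slc5a7, the choline transporter above, and Slc5a3, described below. Not all of them carry fuel. Of 15 members, 1 was higher and 2, Slc5a7 among them, were lower at an unadjusted p under 0.05. Over all tested probes, 5.33% were higher and 5.66% lower at that p. The median log2 fold change was -0.04. Slc16a13 belongs to the monocarboxylate transporter family. Its values were 6.13, 6.02, 6.31 and 6.10 with saline and 5.49, 5.81, 5.48, 5.69 and 5.83 with METH, so that all METH arrays were below all saline arrays. For Slc16a13 the log2 fold change was -0.48 ± 0.13 (SE), with an adjusted p of 0.172, and it was -0.42 and -0.54 within slides 1 and 2. Fits with the cortical or the striatal covariate gave -0.39 and -0.50.

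Glucose and lactate transporters of the brain showed no change past the threshold. Slc2a3, the neuronal glucose transporter, had a log2 fold change of 0.37 (adjusted p = 0.333), with values from 5.34 to 5.86 with saline and from 5.86 to 6.14 with METH. Its groups touched at saline 4 and METH 2. Slc16a1, the lactate and pyruvate transporter of vessels and glia, was at -0.05, and Slc16a3, known for lactate export from glycolytic cells, at 0.11. Slc2a5, a fructose transporter found in microglia, was at -0.24, and with the striatal covariate it passed the threshold with a value below 0.

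Slc5a3 imports myo-inositol, an osmolyte and precursor of phosphoinositides. Its values were 8.56, 8.84, 8.32 and 8.54 with saline and 9.36, 9.60, 8.60, 8.71 and 8.75 with METH. Both METH arrays on slide 1 were far above all saline arrays. The METH arrays on slide 2 lay above both saline arrays of their slide but below saline 2, which is on slide 1. The log2 fold change of Slc5a3 was 0.44, with an adjusted p of 0.470, and 0.78 within slide 1 against 0.26 within slide 2, a difference that was not tested.

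Ion and pH transporters set chloride, bicarbonate, proton and calcium gradients. None of the 18 members reached an unadjusted p under 0.05, against 11% of all tested probes, and 9 lay above 0 and 9 below. Slc12a5, the potassium-chloride cotransporter KCC2 that keeps neuronal chloride low, had a log2 fold change of -0.06. The astrocytic sodium bicarbonate cotransporter Slc4a4 was at -0.25 by its member probe, and its other probe was detected on 0 arrays. The potassium-dependent sodium/calcium exchanger genes Slc24a3 (0.43) and Slc24a2 (0.32) and the sodium bicarbonate transporter gene Slc4a10 (0.42) were highest among those detected on most arrays. Values of Slc24a2 were 9.17, 8.95, 8.81 and 8.99 with saline and 9.54, 8.11, 9.57, 9.40 and 9.88 with METH. All METH arrays but METH 2 lay above the saline arrays, and METH 2 lay below all of them. Without METH 2, the array that went against the difference, the log2 fold change of Slc24a2 was 0.62 (adjusted p = 0.0402), past the threshold. In fits that left out another array the adjusted p reached 0.912. With the cortical covariate the log2 fold change was -0.50 and with the striatal one -0.36.

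Metal transporters carry zinc, iron, copper and magnesium. Of 13 members, 1 had an unadjusted p under 0.05, against 11% of all tested probes, and the median log2 fold change was near 0. Slc39a3, a zinc importer, had values of 7.21, 7.24, 7.12 and 7.60 with saline and 6.81, 6.73, 6.90, 7.14 and 6.54 with METH. Only METH 4 exceeded the lowest saline array, by little. The log2 fold change of Slc39a3 was -0.47 ± 0.15 (SE), with an adjusted p of 0.262. Ferroportin, the iron exporter encoded by Slc40a1, was at -0.41 (adjusted p = 0.526). The zinc importer family members Slc39a12 and Slc39a10 were at -0.27 and 0.22.

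Mitochondrial carriers exchange nucleotides, phosphate and metabolites across the inner membrane, and 24 of 35 matching probes were members. Besides Slc25a25, Slc25a32 was higher and Slc25a1 lower at an unadjusted p under 0.05, and 12 members lay above 0 and 12 below. At that p, 11% of all tested probes differed. Slc25a1, which exports citrate for lipid synthesis, had values of 9.40, 9.30, 9.53 and 9.77 with saline and 9.12, 9.19, 9.02, 9.34 and 9.02 with METH. Only METH 4 overlapped the saline arrays. Slc25a1 had a log2 fold change of -0.36 ± 0.13 (SE), with an adjusted p of 0.301. Slc25a32, a folate and flavin carrier, had a log2 fold change of 0.41 (adjusted p = 0.358), but it was detected on 1 saline array and 4 METH arrays.

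The abundant housekeeping carriers of mitochondria were close to their saline levels. The adenine nucleotide translocases had log2 fold changes of -0.05 (Slc25a4) and -0.07 (Slc25a5), and the phosphate carrier Slc25a3 was at 0.07. The calcium-regulated paralog Slc25a23, which also carries ATP-magnesium, was at 0.27, and the uncoupling protein relatives Slc25a14 and Slc25a27 were at 0.26 and -0.02. None of these passed the threshold.

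Nucleoside and nucleotide sugar transporters had 9 members, 2 of them lower at an unadjusted p under 0.05, against 5.66% of all tested probes. Slc29a1 encodes the equilibrative adenosine transporter ENT1, and its values ran from 7.25 to 7.58 with saline and from 6.86 to 7.28 with METH. The groups overlapped through METH 2. The log2 fold change of Slc29a1 was -0.32 ± 0.14 (SE), with an adjusted p of 0.424. Slc28a2, the sodium-coupled concentrative nucleoside transporter, was at -0.33 (adjusted p = 0.447), with overlapping groups. Slc29a2, a second equilibrative nucleoside transporter, was at 0.06. The transporters of nucleotide sugars into the Golgi, Slc35a1 and Slc35a3, were at 0.15 and 0.06, and Slc35a4 of the same family was at -0.06. All of these intervals included 0.

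Transporters of vitamins, lipids and organic ions had 16 members, with 8 above 0 and 8 below. Slc19a1, the reduced folate carrier, had values of 6.79, 6.63, 6.77 and 6.97 with saline and 6.24, 6.64, 6.41, 6.20 and 6.48 with METH. METH 2 was level with saline 2, and the other METH arrays were lower. Its log2 fold change was -0.40 ± 0.14 (SE), with an adjusted p of 0.289. The thiamine transporter of the same family, Slc19a2, was at 0.27. Slc22a3, an organic cation transporter that takes up monoamines with low affinity, was at 0.11, and the carnitine transporter Slc22a5 was at -0.26. The vitamin C transporter Slc23a2 had a log2 fold change of 0.28 but was detected on fewer than 2 saline arrays.

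Of the remaining members, Slc49a4 (-0.08) and Slc66a2 (0.10) belong to other families. Slc4a1ap (-0.03) and Slc7a6os (-0.07) match the symbol pattern but are named for an adaptor protein and an opposite-strand gene and are not transporters. Proteins that work with solute carriers, such as the proton pump that energises vesicles, the sodium pump beta subunits, the chaperones Bsg and Emb and the WNK kinase pathway, made up a further list. Of 32 written, 26 were measured, and 0 passed the threshold or had an unadjusted p under 0.05, with a median log2 fold change of 0.03 and 13 above 0. The largest difference was that of Oxsr1, a kinase that controls chloride cotransporters, at 0.37 (adjusted p = 0.546).

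The slides gave a within-batch view of all members. Over the 131, the median log2 fold change was -0.03 within slide 1 and near 0 within slide 2. Over all tested probes it was -0.02 and -0.03. Of the members, 76 (58%) had the same sign on both slides. The share over all tested probes was not computed, so this count is a description only. Slc25a25, Slc18a3, Slc16a13, Slc6a6, Slc5a7, Slc17a6 and Slc17a7 were among those with the same sign on both slides, and Slc24a2 was not (-0.24 and 0.71). Slide 2 holds 3 METH arrays and slide 1 holds 2, each with 2 saline arrays.

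**Figure D5:**
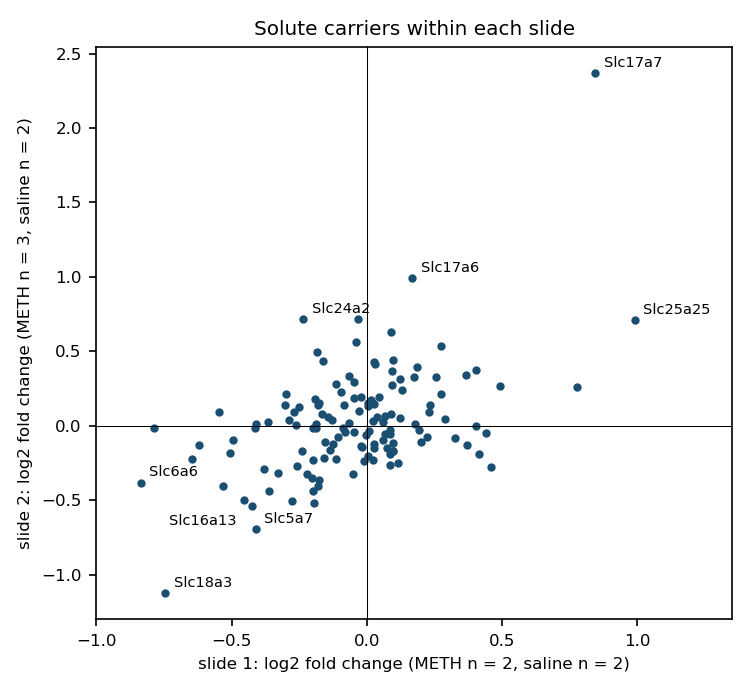
Log2 fold change of the 131 members within slide 1 (horizontal) and within slide 2 (vertical), with a point per member. Slc25a25 and Slc17a7 lie in the upper right and Slc18a3 in the lower left. The same sign on both slides was found for 76 members, a share not computed over all tested probes.

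Replicates of a group also differed among themselves. The SD over arrays had a median of 0.19 with saline and 0.23 with METH. Among members detected on all 4 saline arrays, the saline SD was largest for Slc16a3 (0.48), Slc18a3 (0.48), Slc6a6 (0.44), Slc25a14 (0.43) and Slc13a3 (0.43). Members detected on fewer saline arrays reached higher, with 0.97 for the zinc importer family member Slc39a12, 0.84 for Slc17a7 and 0.69 for Slc4a10. For Slc18a3 the log2 fold change was about the same size as the whole saline range, from 6.16 to 7.22.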

How the data were processed

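Illumina RatRef-12 beadchips measured total RNA. Intensities and detection p-values are the deposited ones. The deposited intensity is background-subtracted, as its values below 0 show, and was made with BeadStudio (version not stated), per the submitters' processing notes. The 9 first-run arrays were corrected from the detection p, given an offset of 16, quantile-normalized and taken to log2 (neqc, limma 3.58.1, R 4.3.3). Fold changes of dim probes are thereby understated. Probes detected (p under 0.05) on 4 or more arrays, 9987 in all, entered a two-sided test (lmFit, then eBayes with a trend on intensity), adjusted over all of them by Benjamini-Hochberg.

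Rows of the 23 later arrays do not match the probe IDs (rank correlation with the first run -0.0095 to 0.0006) and were not used. Platform annotation named 13793 probes with 1 symbol, 8730 with none and 0 with several. All 131 Entrez IDs were in the RefSeq table, and 0 symbols changed. Members and lists were chosen with earlier results of these data known. Named genes were the 8 highest and 8 lowest members detected on at least 4 METH and 3 saline arrays, those whose groups do not overlap (up to 10), the 5 with the largest saline SD among those detected on all 4 saline arrays, and a list of well-known carriers. Genes named beyond these were chosen after their values were seen. The test was checked on simulated data. Alternatives are given in the closing section. The marker list medians were astrocytes -0.07, oligodendrocytes 0.04, microglia -0.07, endothelium -0.22 (1 gene fell), choroid plexus -0.12 and all neurons 0.17. A list of thalamic and other subcortical glutamatergic genes, added after values were seen, had a median of -0.22 (4 measured, Slc17a6 included).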

Additional observations from a re-analysis of the deposited data

Results flagged for a closer look

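In 3 of 70 groups of arrays of the named members, 1 array stood apart from the rest of its group by Dixon's 95% limit, where chance flags about 1 in 20 groups. Slc6a15 was highest on METH 5, at a normalized log2 value of 10.225 with the next array at 9.678. Slc17a7 was lowest on METH 2, at 4.706 with the next at 7.359. Slc24a2 was also lowest on METH 2, at 8.109 with the next at 9.395.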

How the results depend on the processing

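Of 761 values of 35 named members over the alternatives, 706 kept the sign, 55 had the other sign and 16 passed the threshold. Fits without the intensity trend, without a detection filter, with detection on all 9 arrays or from the series matrix reuse the main fold changes. In these fits the sign could not differ, and the series matrix holds the same intensities as the main input. In the main fit 52 of all tested probes passed, and 0 members. In unscaled deposited values 225 and 2 passed (Slc17a6 and Slc25a25). There the median of all probes was 0.23 and that of the members 0.23, so these values shift together. Array weights gave 251 and 4 (Slc16a13, Slc17a7, Slc18a3 and Slc25a25). The slide as a block gave 62 and 1, slide 1 alone 48 and 1, and slide 2 alone 16 and 0, the 1 being Slc25a25. The cortical covariate gave 51 and 1, with a member median of -0.0551, and turned Slc17a7 to -0.34. The striatal covariate gave 60 and 2 (Slc25a25 and Slc2a5), with a median of -0.0757. Without further background correction the counts were 55 and 0, without a detection filter 47 and 0 (280 members), with detection on all 9 arrays 42 and 0 (102 members), without the intensity trend 52 and 0, and again 52 and 0 with the series matrix. Leaving out 1 array at a time gave 31 to 250 among all probes, 0 to 4 among members and member medians from -0.0291 to 0.0158. The highest counts, 250 and 4 (Slc17a7, Slc18a3, Slc24a2 and Slc25a25), came without METH 2, and the lowest of all probes, 31 and 33, without saline 2 and saline 3. Without METH 5 they were 70 and 1 (Slc25a25). The labels number the arrays of both groups, but same-numbered arrays correlated at 0.072, 0.095, 0.08 and 0.247 in their deviations and not every array correlated best with its own number, so the numbers are not shown to pair them. With the replicate block, which leaves out METH 5, 81 and 1 (Slc25a25) passed. The causes of these differences were not tested. The number of arrays and, for dim probes, the signal over background limit what can be seen.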
